A study of Mus musculus with 4 samples.

Results

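DNA replication and S phase genes were examined as a set of 48 genes among the 55487 genes of a mouse count table, of which 31364 had a count in at least 1 of 4 libraries. The members were chosen by name, for the known work of their products in origin licensing, the replicative helicase, DNA synthesis, nucleotide supply and the copying of chromatin. The rule uses gene names and no threshold on a value, but the set was proposed with earlier results of these data known, so its agreement in direction is a description and no independent evidence. All 48 were found in the table and all 48 passed the filter on low counts, with 37 counts at the lowest (Orc1 in knockout 2) and 13593 at the highest (Rrm2 in control 1). Each library came from polyadenylated RNA of cells of the lower incisor of C57 mice at postnatal day 30, from which cells with CD45 (a leukocyte protein), Ter119 (erythroid) or Tie2 (mainly endothelial) on their surface had been sorted away. The 2 controls carried floxed Ptip alleles and no Cre (Ptipf/f), and the 2 knockouts carried the same floxed alleles with Sp7-cre. Ptip is listed in annotations as Paxip1, and its product belongs to histone methyltransferase complexes. Sp7 is a transcription factor gene of bone-forming and tooth-forming cells, so sorted cells in which Sp7-cre is never active keep the gene. Effects of Cre and of Ptip loss cannot be told apart, since no control carried Cre. The labels give the tissue as dental pulp and do not say how many animals stand behind a library, so p-values measure only the spread between these libraries, which may be technical in part.

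A cell copies its genome once per cycle, in S phase. In the preceding G1 phase the origin recognition complex, Cdc6 and Cdt1 load a ring of 6 MCM proteins onto each origin, and in S phase Cdc45 and the GINS complex join the ring to form the moving helicase. Polymerase alpha with primase starts each new strand, polymerases epsilon and delta extend it, the clamp PCNA and its loader keep them on the DNA, and FEN1 and DNA ligase I join the short fragments of the lagging strand. Many of these genes are transcribed under E2F factors, which the retinoblastoma proteins hold in check until the cell commits to S phase. The mouse incisor grows throughout life, and its progenitors divide to replace the worn tissue.

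The promoter letters of the members were read from RefSeq windows of 300 bases (build GRCm38.p6, 250 bases before each start and 50 after). Windows were given for 39 of the 48 members, and 9 members had none. The words searched on both strands were TTTCCCGC, TTTGGCGC, TTTGCCGC and TTTCGCGC, the forms of a consensus E2F site. At least 1 of them stood in the windows of 15 of 39 matched members (38.5%), against 2.6% of the 27025 genes with a window and 2.26% of all 32851 windows. Without their first T, the same words stood in 25 of 39 members (64.1%), against 10.9% of genes and 9.57% of windows, so the ratio to the background was smaller with the shorter words. These are letter matches in windows that were not matched for base composition, and they show neither binding nor a cause. The stretches that follow are shown because they hold the word upstream of the start and outside every annotated exon, in members of 4 steps. The stretches of Cdc6 and Uhrf1 lie inside the GENCODE gene, between its exons and before the RefSeq start, and the other 3 lie upstream of the GENCODE gene. Capitals mark the words, which overlap each other in Mcm5 and at the left site of Mcm6.
Cdc6, chr11:98907983-98908050 (plus strand): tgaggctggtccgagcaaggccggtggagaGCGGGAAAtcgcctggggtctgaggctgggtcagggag
Mcm5, chr8:75109326-75109397 (plus strand): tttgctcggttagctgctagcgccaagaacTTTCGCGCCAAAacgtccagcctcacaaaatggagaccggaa
Mcm6, chr1:128359715-128359845 (minus strand): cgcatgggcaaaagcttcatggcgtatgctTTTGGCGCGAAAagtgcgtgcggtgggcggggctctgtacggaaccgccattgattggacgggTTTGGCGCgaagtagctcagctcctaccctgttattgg
Pola1, chrX:93632256-93632323 (minus strand): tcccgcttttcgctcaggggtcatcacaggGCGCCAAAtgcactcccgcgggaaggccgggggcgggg
Uhrf1, chr17:56304098-56304165 (plus strand): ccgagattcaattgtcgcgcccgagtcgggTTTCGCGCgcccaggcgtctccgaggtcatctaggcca

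In the 4 libraries, the word occurred both in members whose groups did not overlap and in members whose groups did. It stood in 12 of the 29 matched members with knockouts below controls and in 3 of the 10 matched members with overlapping groups. The 7-letter words stood in 19 of 29 and 6 of 10. Mcm2, Mcm10, Cdc45 and Rrm2, which are described below with lower values in both knockouts, had no match to the 8-letter words in their windows, although Rrm2 held a 7-letter word 235 bases before its start. Gins3, Pole2 and Rfc3, whose groups overlapped, had a match.

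Library totals were 15154246 to 19142757 counts. Genes with a count numbered 21578 and 26895 in controls 1 and 2, whose totals were close (15154246 and 15394782), and 24059 and 22760 in knockouts 1 and 2. Values are given as CPM, the count divided by library size and brought to a common scale, with library sizes adjusted by TMM, a factor that centres the bulk of genes, and fold changes are those fitted by edgeR's quasi-likelihood test with Benjamini-Hochberg adjustment over 17128 tested genes, with the knockout over the control. Pairs of values are always in the order of replicate 1 and replicate 2. Paxip1 itself stood at 28.3 and 44.3 CPM in controls against 5.69 and 3.98 in knockouts, 7.496-fold lower (log2 fold change -2.91, SE 0.48, adjusted p = 0.150). The gate did not leave its targets at 0. Ptprc, the gene of CD45, stood at 140.4 and 144 CPM in controls against 39.2 and 9.25 in knockouts, and Tek, the gene of Tie2, at 21.7 and 81.2 CPM in controls against 44.8 and 41.8 in knockouts. Dental mesenchyme markers had summed levels of 1036 and 1319 CPM in controls against 3896 and 3802 in knockouts. Most of the sum was Msx1, at 724.5 and 847 CPM in controls against 2912 and 2525 in knockouts. Of 9 tested markers, 7 had both knockouts above both controls, where 25.8% of all tested genes did so. Lhx8 and Prrx1 overlapped between groups. Barx1 had 0 and 1 counts in controls against 3 and 120 in knockouts and was not tested. Sex-linked genes differed within each group: Xist stood at 58.3 and 211 CPM in controls against 116 and 5.83 in knockouts, and the Y-linked Ddx3y at 43.1 and 8.85 CPM in controls against 1.999 and 117 in knockouts.

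Replication genes had lower normalised counts in the knockout libraries than in the controls, at nearly every step. The fold change was below 0 for 47 of 48 members, where 49.9% of all tested genes were below 0, and Rpa3 was the exception. In 33 members both knockouts lay below both controls, and in 0 both lay above, where 24.9% and 25.8% of all tested genes did so. The median log2 fold change of the members was -1.16, a 2.23-fold lower level, and the median over all tested genes was 0.002. A log2 fold change below -1 was found for 30 members (62.5%) and for 18.4% of tested genes.

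No member passed the edgeR test over all genes, and no gene of the table did (0 lower, 0.00% of those tested, and 0 higher). The adjusted p of the members ran from 0.150 (Cdc6) to 0.995 (Rfc1). At an unadjusted p under 0.05, 27 members were lower and 0 higher, against 9.89% and 7.32% of all tested genes. DESeq2 was run on the 31364 genes with a count. It called 19 members lower and 0 higher, against 5.15% and 2.46% of the 18594 genes to which it gave an adjusted p. The limma-voom fit, on the 17128 genes of the main test, called 0. Between DESeq2 and the main test, tool and input genes changed together. Other settings of edgeR called 18 members lower without the low-count filter (background 3.20% of genes lower and 1.43% higher), 5 with a replicate block (1.08% lower), 3 with a stricter filter (1.06%) and 1 without knockout 1 (1.34%). All 19 members called by DESeq2 were among the 33 whose groups did not overlap. In what follows, "lower" describes the values, and a DESeq2 adjusted p is given for each of the 19 members that test called. For genes outside the 48, DESeq2 calls are given only as counts.

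**Figure D1:**
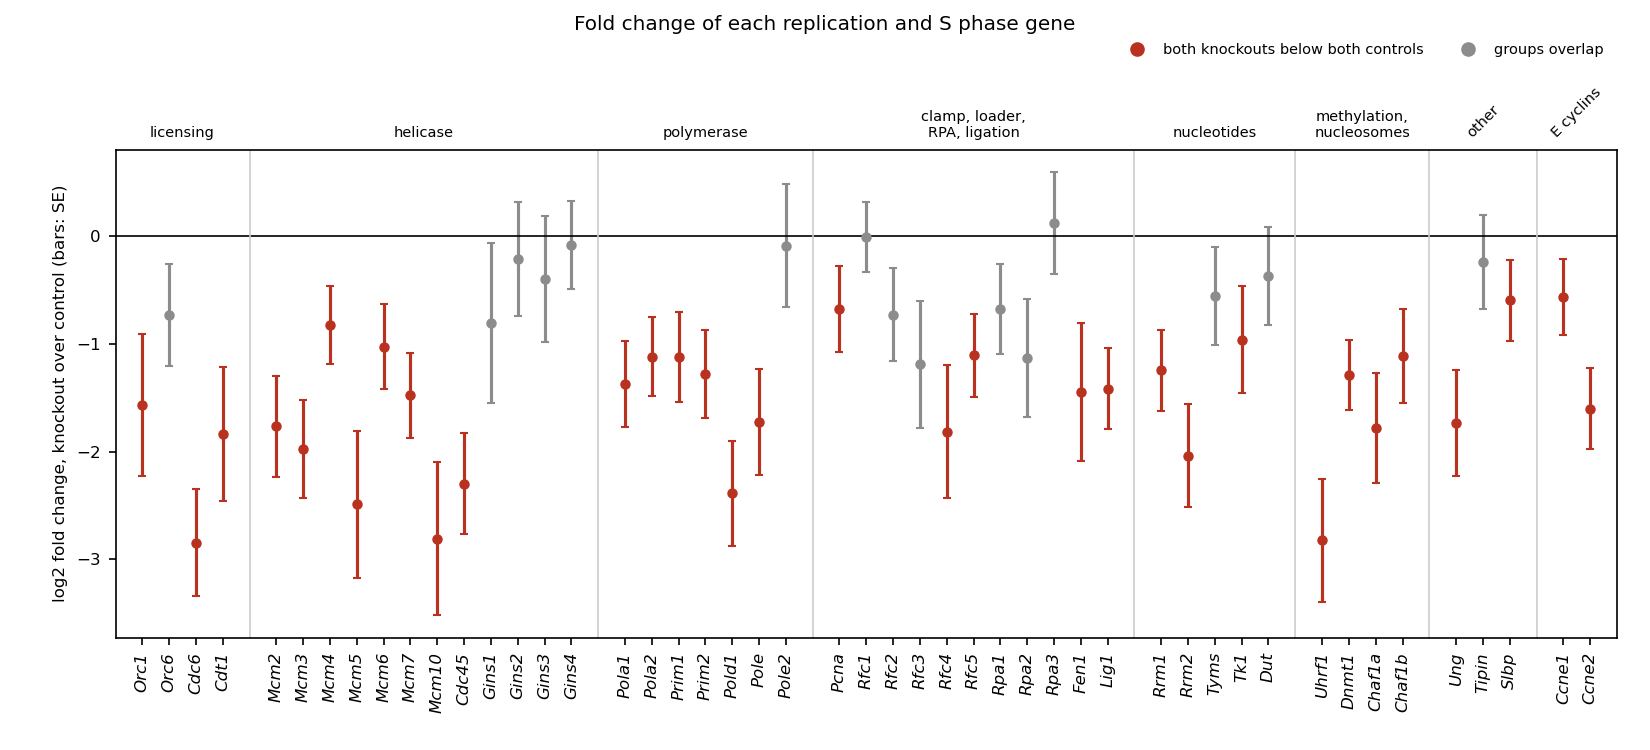
Fitted log2 fold change of each of the 48 genes, knockout over control, grouped by step on the horizontal axis, with bars for the SE (2 libraries per group). Red points mark the 33 genes with both knockouts below both controls, grey points the 15 with overlapping groups, and only Rpa3 lies above 0.

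**Figure D2:**
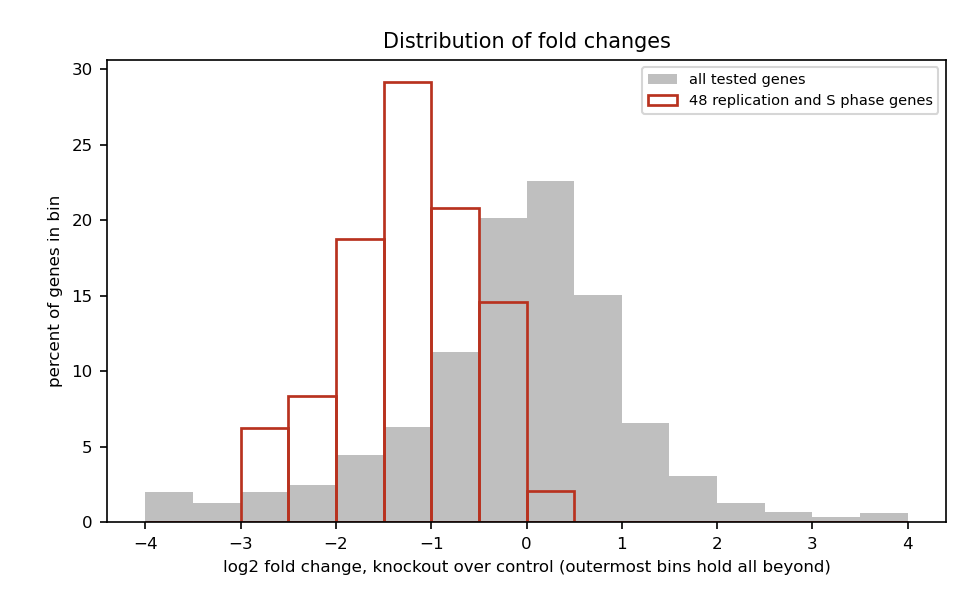
Percent of genes in each bin of log2 fold change (bin width 0.5, knockout over control), for all 17128 tested genes in grey and the 48 replication and S phase genes in red outline. The tallest bin of the members lies between -1.5 and -1 and that of all tested genes between 0 and 0.5.

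The libraries also differed within each group, and blood cell markers differed in the same direction. Summed over the 48 members, the level was 7568 and 4092 CPM in controls against 2744 and 1945 in knockouts. Control 1 was above control 2 in 44 of 48 members, against 48.5% of all tested genes, and knockout 1 above knockout 2 in 42, against 54.9%. In 28 members control 1 was highest, followed by control 2, knockout 1 and knockout 2, an order found in 10.6% of tested genes. The same order of summed level was found for B cell, leukocyte and neutrophil markers. It was also found for the mitosis genes and the other replication, nucleotide and E2F genes described below. B cell and B precursor markers stood at 5418 and 2031 CPM in controls against 846 and 153 in knockouts, and 10 of 10 were lower in both knockouts, with a median of -3.11. None of them was at 0 counts in any library, and Dntt, an enzyme gene of lymphocyte precursors, was lowest with 1 count in knockout 2. Leukocyte markers stood at 3891 and 1310.1 CPM in controls against 554 and 182 in knockouts, with 9 of 10 lower in both knockouts. Neutrophil and precursor markers stood at 522 and 323 CPM in controls against 197 and 70.5 in knockouts, with 5 of 10 lower in both, and Cebpe was at 0 counts in knockout 2. Erythroid markers stood at 460.4 and 429.9 CPM in controls against 102 and 118 in knockouts, with 9 of 10 lower in both. Endothelial markers, at 865 and 1425 CPM in controls against 738 and 709.7 in knockouts, were highest in control 2. Precursors of blood cells are themselves dividing cells, and the part of blood cells or of the other marked cell types in the values of the members was not tested. In bulk libraries, fewer dividing cells and less RNA per cell cannot be told apart.

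**Figure D3:**
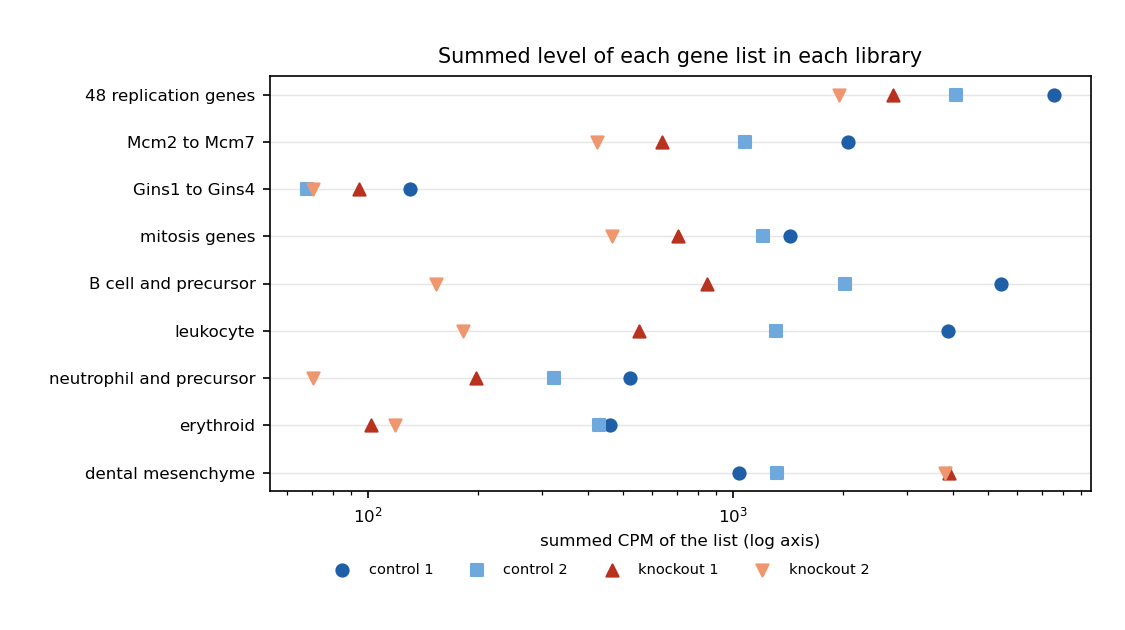
Summed CPM (log axis) of 9 gene lists in each library, circles and squares for controls 1 and 2, triangles pointing up and down for knockouts 1 and 2. The 48 replication genes run from 1945 CPM in knockout 2 to 7568 in control 1. Mitosis genes and B cell, leukocyte and neutrophil markers have the same order of libraries. The 4 GINS genes overlap between groups, and the sum of the dental mesenchyme markers is higher in both knockouts.

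**Figure D4:**
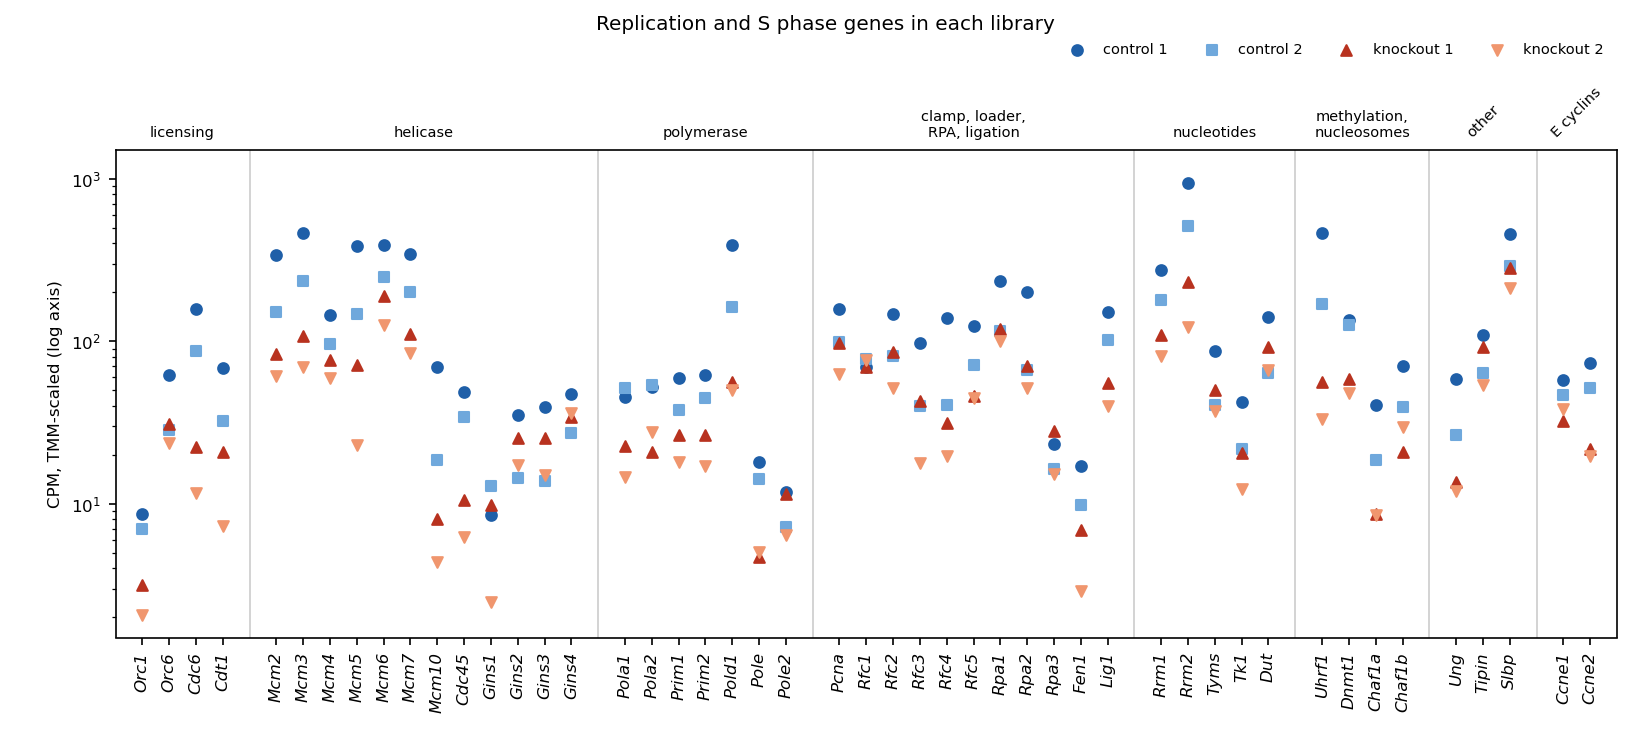
CPM of each of the 48 genes (log axis) in each library, grouped by step; circles and squares are controls 1 and 2, triangles pointing up and down are knockouts 1 and 2. Rrm2 reaches 945 CPM in control 1. Controls and knockouts overlap in 15 genes, among them Gins2, Gins3, Gins4, Rfc1, Rpa3 and Tipin.

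Origin licensing comprised 4 members, of which 3 had both knockouts below both controls, with a median log2 fold change of -1.70. Cdc6 (chr11:98907801-98923940, plus strand) encodes the ATPase that loads the MCM ring together with the origin recognition complex. It stood at 157 and 86.6 CPM in controls against 22.3 and 11.6 in knockouts. The lower control was 3.88 times the higher knockout, the widest such gap among the 48, and the E2F word of its promoter lies 138 bases before the start. Cdc6 was 7.18-fold lower (log2 fold change -2.84, SE 0.50), with an edgeR adjusted p of 0.150 and a DESeq2 adjusted p of 5.3e-06. Cdt1, the partner of Cdc6 in loading, stood at 68.5 and 32.3 CPM in controls against 20.9 and 7.29 in knockouts. Its 2 knockout values differed 2.87-fold between themselves, and the gene was 3.57-fold lower (DESeq2 adjusted p = 0.0312). Orc1, the largest subunit of the origin recognition complex, was the least abundant member of the step per kb of exon and had 8.69 and 6.94 CPM in controls against 3.18 and 2.07 in knockouts (log2 fold change -1.57, SE 0.66). Orc6, the smallest subunit, was the most abundant per kb (14.7 CPM per kb over all libraries). It stood at 62.2 and 28.3 CPM in controls against 30.96 and 23.5 in knockouts, so control 2 lay below knockout 1 and the groups overlapped (log2 fold change -0.73, SE 0.48, adjusted p = 0.495).

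The 6 subunits of the MCM ring were all lower in both knockouts, while none of the 4 GINS subunits was. The fitted levels of the ring genes were 1.77-fold (Mcm4) to 5.61-fold (Mcm5) lower, with a median log2 fold change of -1.62, and that of the GINS genes was -0.30. Mcm3 (chr1:20802968-20820312, minus strand) was the most abundant helicase gene per kb (58.2 CPM per kb over all libraries) and stood at 463 and 233 CPM in controls against 108 and 69.4 in knockouts. Mcm5 (chr8:75109569-75128439, plus strand), with the overlapping E2F words shown above, stood at 384 and 147 CPM in controls against 71.6 and 22.9 in knockouts. Both knockouts of each gene lay below both controls, and DESeq2 called both (adjusted p = 0.00143 and 0.00100). Mcm2 was 3.400-fold lower and Mcm7 2.79-fold lower, and both were called by DESeq2 (adjusted p = 0.00797 and 0.0182). Mcm4 and Mcm6 were not (adjusted p = 0.288 and 0.145). Mcm6, with 3 words upstream of its start, stood at 391 and 248 CPM in controls against 188 and 126 in knockouts. Mean levels of the 6 ring genes per kb of exon ran from 22.9 (Mcm2) to 58.2 CPM per kb (Mcm3), and their products occur once each in the ring.

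The factors that activate the ring divided in the same way. Cdc45, a helicase cofactor, stood at 48.4 and 33.99 CPM in controls against 10.5 and 6.22 in knockouts. Its lower control was 3.23 times its higher knockout, and the gene was 4.92-fold lower (log2 fold change -2.30, SE 0.47, DESeq2 adjusted p = 0.000525). Mcm10, which helps to start the assembled helicase and is no part of the ring, stood at 69.04 and 18.6 CPM in controls against 8.098 and 4.37 in knockouts and was 7.01-fold lower (DESeq2 adjusted p = 0.000637). Its controls differed 3.72-fold between themselves, the widest ratio of the controls among the members of this step. The GINS complex holds Cdc45 on the ring. Gins1 stood at 8.55 and 12.9 CPM in controls against 9.79 and 2.47 in knockouts. Gins2 stood at 34.97 and 14.4 CPM in controls against 25.4 and 17.3 in knockouts, with both knockouts between the controls. Gins3 had 39.4 and 13.7 CPM in controls against 25.2 and 15.1 in knockouts, also between them. In Gins4 the 2 controls, at 47.3 and 27.1 CPM, again enclosed the 2 knockouts, at 34.2 and 35.9. The 4 log2 fold changes were -0.81 (SE 0.74), -0.21 (SE 0.53), -0.40 (SE 0.59) and -0.09 (SE 0.41). Intervals of this width do not show that GINS genes were equal between groups, and the difference between the ring and GINS genes was not tested. Without control 1, the values of Gins2, Gins3 and Gins4 were above 0 (0.52, 0.52 and 0.34). Gins2 shares 2758 exon bases with Gse1 on the opposite strand, and without strand in the libraries their reads cannot be told apart there.

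DNA polymerases and primase were lower in both knockouts in 6 of 7 members (median log2 fold change -1.28). The polymerase alpha and primase complex makes the RNA and DNA primer, and its 4 genes were alike in size of difference: Pola1 2.59-fold, Pola2 2.17-fold, Prim1 2.18-fold and Prim2 2.43-fold lower. Pola1 (catalytic subunit, chrX:93304767-93632155, minus strand) stood at 45.5 and 51.1 CPM in controls against 22.7 and 14.7 in knockouts, and Pola2 at 51.9 and 53.5 CPM in controls against 20.9 and 27.7 in knockouts. The controls of both genes lay close together, and control 2 was the higher, unlike in most members. DESeq2 called Pola1 (adjusted p = 0.0487) and none of the other 3. Pold1, the catalytic subunit of polymerase delta on the lagging strand, was the most abundant gene of the step per kb (33.95 CPM per kb). It stood at 392 and 161 CPM in controls against 56.2 and 49.7 in knockouts and was 5.23-fold lower (log2 fold change -2.39, SE 0.49, DESeq2 adjusted p = 0.000122). The controls of Pold1 differed 2.43-fold, and both were well above the knockouts. Pole, the catalytic subunit of polymerase epsilon on the leading strand, was at 18.1 and 14.2 CPM in controls against 4.72 and 5.04 in knockouts, 3.31-fold lower (DESeq2 adjusted p = 0.0433). Its partner subunit Pole2 had 11.8 and 7.19 CPM in controls against 11.5 and 6.39 in knockouts. The groups of Pole2 overlapped throughout, with a fold change near 0 (log2 fold change -0.09, SE 0.57, adjusted p = 0.963).

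Clamp, clamp loader, single-strand binding and ligation genes showed the most overlap, with 5 of 11 members lower in both knockouts (median log2 fold change -1.11). Pcna, the sliding clamp and the most abundant of them per kb (43.5 CPM per kb), stood at 158 and 98.7 CPM in controls against 98.05 and 62.9 in knockouts. Control 2 and knockout 1 were nearly equal, at a ratio of 1.01, so the group counts as not overlapping by a narrow margin (log2 fold change -0.67, SE 0.40, adjusted p = 0.454). The clamp loader RFC has 1 large and 4 small subunits, and these differed in size. Rfc1, the large subunit, stood at 68.9 and 77.7 CPM in controls against 69.8 and 76.2 in knockouts. Its libraries were within 1.13-fold of each other (log2 fold change -0.01, SE 0.32). Rfc4 stood at 139 and 40.5 CPM in controls against 31.4 and 19.6 in knockouts, 3.52-fold lower (DESeq2 adjusted p = 0.0283), with 1 high control. Rfc5 was 2.15-fold lower, with no overlap. Rfc2, at 146 and 81.5 CPM in controls against 85.8 and 51.7 in knockouts, and Rfc3, at 97.6 and 40.1 CPM in controls against 42.5 and 17.8 in knockouts, had control 2 just below knockout 1 (log2 fold changes -0.73 and -1.19).

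RPA coats single-stranded DNA at the fork, and the groups of its 3 genes overlapped. Rpa1 stood at 235 and 116 CPM in controls against 119 and 101 in knockouts. Rpa2 was at 201 and 66.2 CPM in controls against 70.7 and 51.3 in knockouts. In both genes control 1 was apart and the other 3 libraries lay together, with log2 fold changes of -0.68 (SE 0.42) and -1.13 (SE 0.55). Rpa3, the smallest subunit, had 23.4 and 16.4 CPM in controls against 27.9 and 15.3 in knockouts, and was the 1 member with a fold change above 0 (log2 fold change 0.12, SE 0.47). Lig1, the ligase that seals Okazaki fragments, stood at 152 and 102 CPM in controls against 55.4 and 40.02 in knockouts, with both knockouts below both controls. It was 2.66-fold lower (log2 fold change -1.41, SE 0.38, DESeq2 adjusted p = 0.0259). Fen1, the nuclease that trims the fragments before sealing, was 2.72-fold lower at low levels of 16.97 and 9.87 CPM in controls against 6.92 and 2.91 in knockouts (log2 fold change -1.45, SE 0.64). Its exons overlap 2 genes on the opposite strand. Gm10143 shares 1909 bases, where Fen1 has 2.422 kb of exon, and had 0 to 6 counts. Tmem258 shares 130 bases and had 835 and 420 counts in controls against 1413 and 747 in knockouts. These lay above the 244 and 155 against 135 and 52 of Fen1 in every library. Without strand in the libraries, reads in the bases shared with either gene cannot be told apart, so the level of Fen1 is uncertain.

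In the supply of deoxynucleotides, the ribonucleotide reductase genes had the lowest values relative to control. Rrm2 (chr12:24708241-24714146, plus strand), the small subunit made in S phase, had the highest level per kb of all 48 genes (163 CPM per kb over all libraries). It stood at 945 and 512 CPM in controls against 232 and 123 in knockouts and was 4.11-fold lower (log2 fold change -2.04, SE 0.48, DESeq2 adjusted p = 0.00100). Rrm1, the large subunit, stood at 275 and 178 CPM in controls against 109.7 and 81.5 in knockouts, 2.37-fold lower (log2 fold change -1.24, SE 0.38, DESeq2 adjusted p = 0.0536, which did not pass). Both subunits were thus separated between groups, by 2.21 and 1.63 times between the lower control and the higher knockout. Tk1, a thymidine salvage kinase, was 1.94-fold lower with a ratio of only 1.05 between those 2 libraries. Tyms, which makes thymidylate, overlapped at 87.2 and 40.5 CPM in controls against 49.9 and 36.9 in knockouts (log2 fold change -0.56, SE 0.46). Dut, which removes dUTP, overlapped at 141 and 63.7 CPM in controls against 92.2 and 66.4 in knockouts (log2 fold change -0.37, SE 0.46). In both, control 1 was the highest library, and without it the fold changes were 0.06 and 0.28.

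The 4 genes that copy DNA methylation and nucleosomes were all lower in both knockouts (median log2 fold change -1.54). Uhrf1 (chr17:56303321-56323486, plus strand) encodes the protein that binds hemimethylated DNA behind the fork and recruits DNMT1. It stood at 463 and 169 CPM in controls against 56.3 and 33.01 in knockouts, with both controls at least 3.01 times the higher knockout, and was 7.08-fold lower (log2 fold change -2.82, SE 0.57, DESeq2 adjusted p = 1.8e-05). Dnmt1, the methyltransferase itself, stood at 135 and 126 CPM in controls against 58.7 and 48.3 in knockouts. Replicates of Dnmt1 lay closer together than those of Uhrf1, and the fitted difference was 2.44-fold (log2 fold change -1.29, SE 0.33, DESeq2 adjusted p = 0.0310). Chaf1a and Chaf1b encode subunits of the CAF-1 complex, which places histones on new DNA. Chaf1a was at 40.3 and 18.6 CPM in controls against 8.61 and 8.46 in knockouts, 3.44-fold lower (DESeq2 adjusted p = 0.0259). Chaf1b was at 69.9 and 39.5 CPM in controls against 20.7 and 29.8 in knockouts, 2.16-fold lower (log2 fold change -1.11, SE 0.44, DESeq2 adjusted p = 0.174), and here knockout 2 was the higher knockout. Chaf1a shares 4648 exon bases with Ubxn6 on the opposite strand, and its level is uncertain there.

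The remaining members were the E-type cyclins and 3 genes of other S phase work, namely uracil removal, fork protection and histone mRNA binding. Cyclin E drives CDK2 at the start of S phase. Ccne2 stood at 73.4 and 51.8 CPM in controls against 21.6 and 19.7 in knockouts, 3.03-fold lower (log2 fold change -1.60, SE 0.38, DESeq2 adjusted p = 0.0116). Ccne1 stood at 57.8 and 46.5 CPM in controls against 32.1 and 38.4 in knockouts. Both cyclins were separated between groups, and the difference of Ccne1 was the smaller, at 1.48-fold (log2 fold change -0.56, SE 0.36). Ung, the glycosylase that removes uracil from DNA, was at 58.6 and 26.5 CPM in controls against 13.6 and 11.9 in knockouts, 3.33-fold lower (DESeq2 adjusted p = 0.0221). Slbp, whose product binds the stem-loop of histone mRNAs, was the most abundant of the 3 per kb (51.2 CPM per kb) and stood at 457 and 292 CPM in controls against 284 and 212 in knockouts. Its control 2 was 1.03 times knockout 1 (log2 fold change -0.59, SE 0.37). Tipin, which protects stalled forks with Timeless, overlapped at 109 and 63.2 CPM in controls against 92.5 and 53.5 in knockouts (log2 fold change -0.24, SE 0.43).

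Other genes of the pathway were taken from lists of replication, nucleotide and E2F genes outside the 48. Of their 61 tested genes, 36 had both knockouts below and 4 both above the controls, where 24.9% and 25.8% of all tested genes did so. Their median log2 fold change was -0.77. No gene of these lists passed in edgeR. At an unadjusted edgeR p under 0.05, 23 were lower and 2 higher, against 9.89% and 7.32% of all tested genes. DESeq2 called 13 lower and 0 higher, against 5.15% and 2.46% of the genes to which it gave an adjusted p. Among 14 further origin and firing genes, 7 lay below and 1 above the controls in each knockout (median -0.67). Wdhd1, which couples the helicase to polymerase alpha, stood at 47.6 and 38.7 CPM in controls against 11.1 and 11.99 in knockouts, and Topbp1, an activator of origins, at 45.5 and 49.5 CPM in controls against 15.2 and 18.3 in knockouts. Both were separated between groups, 3.74-fold and 2.84-fold lower. The origin subunit Orc4 stood at 73.9 and 63.8 CPM in controls against 98.3 and 93.1 in knockouts (log2 fold change 0.47), and the MCM-binding Mcmbp at 22.3 and 25.9 CPM in controls against 26.7 and 25.2 in knockouts (0.10). The log2 fold changes of the other origin subunits were -1.57 for Orc1, 0.10 for Orc2, 0.09 for Orc3, -0.29 for Orc5 and -0.73 for Orc6, and differences between subunits were not tested.

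Of 19 tested fork genes outside the 48, 11 lay below and 0 above the controls in each knockout (median -0.96). Over all tested genes these shares were 24.9% and 25.8%. Top2a, the topoisomerase that untangles sister DNA, stood at 178 and 183 CPM in controls against 74.7 and 48.7 in knockouts, and Esco2, a cohesin acetyltransferase, at 45.8 and 33.99 CPM in controls against 13.7 and 7.398 in knockouts. Both lay lower in each knockout, 2.93-fold and 3.78-fold. Top1 (log2 fold change 0.25) and the polymerase epsilon subunit Pole3 (0.23) overlapped between groups. Among 10 further nucleotide genes, 6 lay below and 1 above in each knockout (median -0.98). Dck, the deoxycytidine salvage kinase, stood at 451 and 381 CPM in controls against 102 and 65.5 in knockouts and was 4.96-fold lower. Rrm2b, the reductase subunit used outside S phase, was at 57.8 and 59.3 CPM in controls against 24.1 and 15.1 in knockouts, 2.98-fold lower. Cmpk1, a kinase for pyrimidine nucleotides in general, was the gene of this list with both knockouts above both controls, at 112 and 101 CPM in controls against 174 and 242 in knockouts and with a log2 fold change of 0.97 (SE 0.34, edgeR adjusted p = 0.224). Nme1, a nucleoside diphosphate kinase, overlapped (0.26).

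E2F, retinoblastoma family and S phase kinase genes went in both directions. Of 18, 12 lay below and 2 above the controls (median -0.63), against 24.9% and 25.8% of all tested genes. E2f2, an activating E2F, stood at 311 and 232 CPM in controls against 42.1 and 25.7 in knockouts and was 8.01-fold lower (log2 fold change -3.00, SE 0.41, edgeR adjusted p = 0.145). E2f8, a repressing E2F that is itself made in S phase, stood at 47.7 and 42.2 CPM in controls against 10.6 and 5.04 in knockouts, 5.73-fold lower. On the higher side, E2f5 stood at 10.1 and 10.1 CPM in controls against 22.04 and 23.99 in knockouts and E2f6 at 7.16 and 2.48 CPM in controls against 11.5 and 10.5 in knockouts, with both knockouts above both controls (log2 fold changes 1.19 and 1.19, edgeR adjusted p = 0.224 and 0.422). Mitosis genes resembled the replication genes: 18 of 20 lay below and 0 above the controls, their median being -1.25. Their summed level was 1433 and 1207 CPM in controls against 705 and 467 in knockouts, so the controls lay closer together than for the replication genes, where control 1 had 7568 and control 2 4092 CPM. Kif11, a spindle motor, was 4.86-fold lower and Bub1b, a spindle checkpoint kinase, 2.83-fold lower.

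With 1 library left out, the median log2 fold change of the 48 members was -0.87 without control 1, -1.5 without control 2, -1.46 without knockout 1 and -1.02 without knockout 2. Members with a fold change below 0 numbered 40 without control 1, 44 without knockout 2 and 47 without either of the others. The members that turned above 0 without control 1 were Gins2, Gins3, Gins4, Pole2, Tyms, Dut and Tipin, 7 in all. Cdc6, Uhrf1, Mcm10 and Mcm5 kept negative fold changes throughout, from -2.40 to -3.39 for Cdc6, -1.97 to -3.43 for Uhrf1, -1.62 to -3.52 for Mcm10 and -1.69 to -3.53 for Mcm5. The range of Dnmt1 was narrower, from -1.15 to -1.44, as was that of Pola2, from -0.93 to -1.34.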

How the data were processed

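Polyadenylated RNA of 4 libraries was measured, 2 per group, with groups and replicate numbers taken from the sample titles. The authors deposited raw counts, 1 whole number per Ensembl gene and library. The submitters' processing notes name featureCounts 2.0.1 for counting, Bowtie2 2.3.5.1, Trim Galore 0.6.6 and GRCm38. Which annotation release, strand setting and rule for multiply matching reads they used is not given in the sources used here. Per the labels' protocols, cDNA came from oligo-dT priming with template switching, followed by 14 cycles of PCR, without strand or molecule marks, so the counting precision is an upper limit. A count of 3 equals 0.157 to 0.198 CPM.

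Symbols, coordinates and exon lengths came from GENCODE M21 (GRCm38), where 55227 of 55487 IDs matched. Levels are compared between genes only as CPM per kb of merged exons. The test was edgeR 4.0.16 (R 4.3.3) quasi-likelihood on the 17128 genes kept by filterByExpr, TMM scaling, genotype as the only term, two-sided, threshold 0.05. The SE is the absolute log2 fold change divided by the square root of F. Alternatives in edgeR were RLE and upper quartile scaling, no filter and CPM above 1 in all 4 libraries. A replicate block was also tried, and each library was left out with the gene set unchanged. Other tools were DESeq2 1.42.0 and limma-voom (limma 3.58.1). DESeq2 and the edgeR fit with no filter took the 31364 genes with a count, and limma-voom took the 17128 genes of the main test. The scripts were tested on simulated data. Near copies were sought with blastn among transcripts (at least 95% identity over 200 bases). Members and lists were chosen with earlier results of these data known. Named with full values in each step were the 2 genes with the smallest p, the 1 with the largest, the most abundant per kb and every gene with overlapping groups. Further members, such as Mcm5, Mcm6, Mcm10, Orc1 and Pola2, were given values outside this rule. From each other pathway list, the 2 lowest p-values per direction chose the genes named. Paxip1, the origin subunits Orc2, Orc3 and Orc5, and single marker and sex-linked genes were named beside them.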

Additional observations from a re-analysis of the deposited data

How the results depend on the processing

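The main edgeR test called 0 genes higher, 0 lower and 0 members lower. The counts were the same with RLE or upper quartile scaling and in limma-voom. DESeq2, run on the 31364 genes with a count, called 458 genes higher, 958 lower and 19 members lower. Without the low-count filter edgeR called 449 genes higher, 1005 lower and 18 members lower, with an infinite prior for the spread, so that a gene's own spread did not enter its p. With CPM above 1 in all 4 libraries it called 55 genes higher, 138 lower and 3 members lower (Cdc6, Pold1 and Uhrf1). The fit with the replicate block called 59 genes higher, 185 lower and 5 members lower (Cdc6, Mcm3, Mcm5, Rrm2 and Uhrf1); the labels name no pairing, and same-numbered libraries deviated from their group means with a correlation of 0.145 across genes, which are not independent replicates. With 1 library left out, the counts ranged from 0 to 55 genes higher, 0 to 230 lower and 0 to 1 member lower (Cdc6), the upper values without knockout 1. The cause of these differences was not tested. The median log2 fold change of the members was -1.15 to -1.25 under the other settings. Fold changes that turned sign were all of members with overlapping groups, when 1 library was left out: without control 1, Gins2 0.52, Gins3 0.52, Gins4 0.34, Pole2 0.27, Tyms 0.06, Dut 0.28, Tipin 0.16; without control 2, Rfc1 0.036 and Rpa3 -0.17; without knockout 1, Rfc1 0.056 and Rpa3 -0.38; without knockout 2, Gins2 0.041, Pole2 0.27 and Tipin 0.10. Over the 4 fits with 1 library left out, the ranges were Gins2 -0.77 to 0.52, Gins3 -1.03 to 0.52, Gins4 -0.48 to 0.34, Pole2 -0.57 to 0.27, Rfc1 -0.12 to 0.056, Rpa3 -0.38 to 0.49, Tyms -1.06 to 0.061, Dut -0.89 to 0.28, Tipin -0.69 to 0.16. At 2 libraries per group, the main edgeR test told no gene's difference, large or small, from the spread between libraries.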

Other observations

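Processed pseudogenes with at least 95% identity over 200 bases were found for 8 of the 48 members, and their counts were small beside those of the genes. Gm5648, 98.3% identical to Uhrf1 over 1590 bases, had 27 and 8 counts in controls against 3 and 1 in knockouts, against 6656 and 2661 and 1098 and 589 for Uhrf1. Gm48455, a partial copy of Rrm2, had 37 and 16 counts in controls against 9 and 4 in knockouts. Gm12870, a copy of Rfc5, had 35 and 22 counts in controls against 5 and 10 in knockouts. The copies of Uhrf1, Rrm2 and Rfc5 were thus lower in both knockouts, as their genes were. Pcna-ps2, 99.2% identical to Pcna, had 5 and 10 counts in controls against 11 and 3 in knockouts. How reads with several matches were counted is not given in the sources used here, so transcription of the copies and misplaced reads of the genes cannot be told apart. Some members also matched other expressed genes. Tyms was 97.7% identical to Reep3 over 355 bases and also matched Map3k2 and Wdr59, and Slbp matched Gas2l3. Reep3 had 519 and 941 counts in controls against 1038 and 1264 in knockouts, and Tyms had 1254 and 636 against 973 and 659. The levels of Tyms and Slbp are uncertain to that extent. Exons of 15 members overlap a gene on the opposite strand, among them Cdc45 with Ufd1 (209 bases), Rfc2 with Lat2 (952 bases) and Ccne2 with Ints8 (609 bases). Orc6 shares 171 bases with Vps35, which had 2555 and 3403 counts in controls against 4433 and 3810 in knockouts. Rfc4 shares 194 bases with Eif4a2, which had 1565 and 2729 counts in controls against 3044 and 1896 in knockouts. The levels of Orc6 and Rfc4 are uncertain in these bases. Lat2, a gene of blood cell signalling, had 284 and 88 counts in controls against 49 and 58 in knockouts, and reads of Rfc2 and Lat2 in the shared bases cannot be told apart.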
